A study of Mus musculus with 6 samples.

Results

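The genes described here are 95 of 19938 that read low on the second array of both groups of mouse embryonic stem (ES) cells. A gene was taken when its level in replicate 2 lay at least 1 log2, which is 2-fold, below the mean of replicates 1 and 3 in the reporter-negative group and also in the reporter-positive group. The levels are log2 expression values from Affymetrix whole-transcript arrays, and each gene is represented by its brightest probeset that carries a single symbol. The cells carried the 2C::tomato reporter and were sorted by fluorescence into negative and positive cells, with 3 arrays of each. Replicate numbers 1 to 3 come from the sample titles, which mark all 6 as WT. All were passaged on gelatin in ES-KOSR medium. Their protocol names vehicle or 4OHT, the latter to delete Kdm1a, and no label says which of them these samples received. In published work the tomato protein of this reporter is driven by the long terminal repeat of MERVL, a retroelement transcribed soon after the first division of the embryo. Whether replicates were grown as separate cultures is not stated, so each p-value reflects array-to-array spread that may be technical only.

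Mouse ES cells keep dividing without differentiating when LIF binds the receptor made of Lifr and gp130 and activates the factor STAT3. WNT signals act through beta-catenin and its partners of the TCF and LEF family, BMP signals raise the Id genes, and FGF signals through ERK push cells toward differentiation and induce their own inhibitors, the Sprouty genes. Myc genes support growth downstream of several of these inputs. Small nucleolar RNAs (snoRNAs), another class among the 95, guide chemical marks onto ribosomal RNA or take part in its cleavage, and most are cut from the introns of host genes.

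The promoters of 4 of the 95 genes are shown because they stand for the patterns described next: Foxd3 and Pim2 among the genes low only in replicate 2, and Sftpb and Sftpa1 among those that were high only in replicate 1. Each line gives the 250 bases before the annotated start, 5′ to 3′, from RefSeq on GRCm38.p6. All 4 lie on the plus strand, at chr4:99656049-99656298 (Foxd3), chrX:7878056-7878305 (Pim2), chr6:72304360-72304609 (Sftpb) and chr14:41131538-41131787 (Sftpa1). Capitals mark matches, on either strand, to 6 short motifs, whose letters are given with their counts after the sequences.
Foxd3: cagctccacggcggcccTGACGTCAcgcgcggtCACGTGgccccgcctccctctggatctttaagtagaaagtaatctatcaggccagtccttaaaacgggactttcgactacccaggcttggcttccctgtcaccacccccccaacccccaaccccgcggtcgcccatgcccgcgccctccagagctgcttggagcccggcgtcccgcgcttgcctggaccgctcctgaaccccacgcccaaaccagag
Pim2: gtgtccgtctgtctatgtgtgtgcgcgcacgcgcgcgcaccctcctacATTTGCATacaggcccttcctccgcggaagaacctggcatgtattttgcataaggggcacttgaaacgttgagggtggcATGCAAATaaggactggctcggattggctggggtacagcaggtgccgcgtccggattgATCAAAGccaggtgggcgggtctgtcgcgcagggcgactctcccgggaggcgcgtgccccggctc
Sftpb: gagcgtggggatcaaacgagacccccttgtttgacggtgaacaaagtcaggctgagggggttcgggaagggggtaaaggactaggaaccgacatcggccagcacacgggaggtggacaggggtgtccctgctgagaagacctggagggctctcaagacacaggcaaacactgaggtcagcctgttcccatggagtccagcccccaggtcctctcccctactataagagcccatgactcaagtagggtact
Sftpa1: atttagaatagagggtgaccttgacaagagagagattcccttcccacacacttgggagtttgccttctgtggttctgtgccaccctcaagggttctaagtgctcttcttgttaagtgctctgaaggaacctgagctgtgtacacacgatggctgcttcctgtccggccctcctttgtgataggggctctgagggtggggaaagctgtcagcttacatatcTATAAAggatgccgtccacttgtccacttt
Foxd3 held 1 cyclic AMP element and 1 E-box, Pim2 held 2 octamers and 1 TCF and LEF motif, Sftpa1 held 1 TATA box and Sftpb held no match. Promoters were found for 71 of the 95 genes. Among them the octamer ATGCAAAT, which POU factors such as Oct4 can bind, stood in 2 (2.82%, against 1.61% of 27025 promoters of that length). The cyclic AMP element TGACGTCA stood in 3 (4.23% against 1.62%). The E-box CACGTG, the motif of Myc and its partners, stood in 3 as well (4.23% against 6.05%), and TTCNNNGAA, the motif of STAT factors, in 6 (8.45% against 7.18%). For the TCF and LEF motif, searched as CTTTGAT, the count was 2 (2.82% against 3.23%). The TATA box, searched as TATAAA on either strand like the rest, stood in 9 (12.68% against 12.97%). No base marked in the 4 promoters belongs to more than 1 motif. These are counts of letters, and no motif was tested. The median GC content was 54.8% for the 71 promoters and 52.0% for all.

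The arrays carried ES cell RNA in every sample. Pou5f1, which encodes Oct4, lay between 12.08 and 12.69, Nanog between 12.54 and 12.98, and Sox2 between 11.57 and 12.46. The mean over 10 ES cell markers was 11.76 to 12.21 per array, whereas the means of marker lists for fibroblast feeders, primitive endoderm, trophectoderm, neural cells, mesoderm and macrophages lay between 6.41 and 9.46. The feeder markers had their highest mean in replicate 2 of both groups (7.97 in negative and 7.88 in positive, against 7.04 to 7.54 in the other arrays), and so did the trophectoderm markers (9.24 and 9.46, against 8.44 to 8.82). A few members carried both means. Of 12 feeder markers, 3 were at least 0.5 log2 higher in replicate 2 of both groups, namely Acta2 (2.44 and 3.27), Tagln (2.88 and 2.91) and Pdgfrb (1.09 and 1.71), whereas the fibroblast genes Col3a1 (-0.40 and -0.23) and Dcn (-0.03 and -0.40) were lower. Of 8 trophectoderm markers 3 were higher by that amount, the keratin genes Krt8, Krt18 and Krt7, while Cdx2 differed by 0.13 and 0.23 and Elf5 by -0.56 and -0.45. The part of these shifts in the low readings of the 95 genes was not tested. Arrays correlated across genes at r between 0.969 and 0.995. In sorted bulk samples, fewer cells expressing a gene and less RNA per cell cannot be told apart.

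By the rule, 0.476% of all genes were low in replicate 2 of both groups, and 199 genes (0.998%) were at least 1 log2 higher there. At a difference of 0.5 log2 the counts were 496 lower (2.49%) and 1027 higher (5.15%). The 95 were chosen by these differences, which are therefore described without a test. Across the 95, the median level in arrays 1, 2 and 3 was 9.61, 8.27 and 9.43 in negative cells and 9.74, 7.87 and 9.66 in positive cells. Replicate 2 minus the mean of the others had a median of -1.26 in negative cells, with a range of -1.001 to -2.35, and of -1.73 in positive cells, with a range of -1.001 to -3.45. The difference was larger in positive cells for 84 genes and larger in negative cells for 11. Over all 19938 genes, the value in positive cells was the lower one for 10075. It reached 1.5 log2 in both groups for 23 genes and 2 log2 in both for 3, which were Glod5, Foxd3 and 4930591A17Rik. For 93 of the 95, both replicate 2 arrays lay below all 4 other arrays, which held for 21.8% of all genes. The exceptions were Sftpb and Lyz2. Of the 95, 70 (73.7%) had a mean level of at least 8, against 45.1% of all genes and 59.8% of the 199 genes higher in replicate 2. Dim probesets are compressed, so a rule on the size of a difference can favour brighter genes. RefSeq lists 86 of them as protein-coding, 6 as snoRNA, 2 as long noncoding RNA and 1 as a Y RNA.

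**Figure D1:**
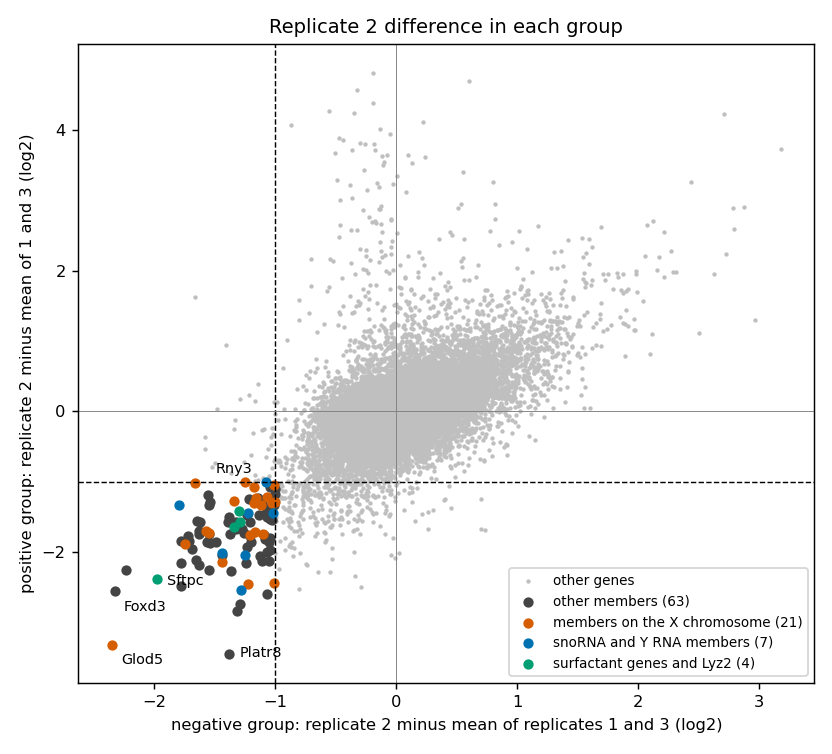
Each point is a gene, with replicate 2 minus the mean of replicates 1 and 3 (log2) in negative cells on the horizontal axis and in positive cells on the vertical axis. The dashed lines mark the rule at -1. The 95 genes lie in the lower left corner, with Glod5 at -2.35 and -3.33 and Rny3 at the edge at -1.07 and -1.001.

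Transcription factors made up 11 of the 95, with a median difference of -1.37 in negative and -1.86 in positive cells. Foxd3 (probeset 10506150), a forkhead factor that ES cells and the epiblast need, read 10.08, 7.48 and 9.53 in negative arrays 1, 2 and 3 and 10.08, 7.52 and 10.07 in positive arrays 1, 2 and 3. Replicate 2 was thus 5.02-fold lower in negative and 5.87-fold lower in positive cells, and the other 4 arrays did not reach down to it. Myc (probeset 10424400), the growth regulator, read 11.68, 10.27 and 11.59 in negative and 11.51, 9.24 and 11.51 in positive arrays. Its relative Mycn read 11.92, 10.95 and 12.09 in negative and 11.84, 10.12 and 12.12 in positive arrays. Both Myc genes were thus lower by more in the positive group than in the negative group, whereas Foxd3 differed by a similar amount in each. Lef1, a nuclear partner of beta-catenin, read 8.40, 7.19 and 8.74 in negative and 8.58, 7.27 and 8.96 in positive arrays. Id1, a BMP target that blocks differentiation factors of the helix-loop-helix class, read 9.99, 8.71 and 9.91 in negative and 10.17, 8.71 and 10.19 in positive arrays. Epas1, a hypoxia-inducible factor subunit, read 10.37, 8.77 and 10.25 in negative and 10.61, 8.77 and 10.69 in positive arrays. In Id1 and Epas1 the replicate 2 arrays of both groups read the same to 2 decimals. Aire, known for tolerance in the thymus, Klf8 and Trps1, both zinc finger factors, and the homeobox gene Rhox1 were the other named factors, and Klf8 (-1.67 and -1.02) and Rhox1 (-1.25 and -1.001) were lower by more in negative cells. Zfp850 (-1.04 and -1.07) is a zinc finger gene, and its symbol also stands on 2 probesets shared with related zinc finger genes, so its value may include theirs.

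Signalling genes made up another 11. All 11 had the larger difference in positive cells, but so had 84 of the 95, so this is not particular to the class. Lifr, the receptor through which LIF acts, read 10.42, 9.46 and 10.52 in negative and 10.32, 9.12 and 10.56 in positive arrays. Pim2 (probeset 10598467), a serine/threonine kinase of the Pim family, which STAT factors induce, read 11.46, 10.07 and 12.16 in negative and 11.76, 10.14 and 12.29 in positive arrays. It was the gene among the 95 with the largest excess of replicate 3 over replicate 1. Spry4, an inhibitor of FGF signalling, read 12.08, 10.68 and 11.93 in negative and 11.97, 10.23 and 11.64 in positive arrays. Eras, a Ras-like GTPase typical of ES cells, read 9.43, 8.42 and 9.64 in negative and 9.17, 8.09 and 9.66 in positive arrays. Trh, the precursor of thyrotropin-releasing hormone, read 10.96, 9.57 and 10.82 in negative and 11.21, 8.28 and 11.01 in positive arrays. Trh and the Ras exchange factor gene Rasgrp2 (-1.07 and -2.59) had the widest gaps between the groups in this class, since positive replicate 2 was far below negative replicate 2. The small GTPase gene Rab25 followed with -1.29 and -2.74. Nrp2, a co-receptor of semaphorins and VEGF, differed alike in both groups (-1.78 and -1.84). Chrna9, a nicotinic receptor subunit (-1.54 and -2.25), the tyrosine kinase gene Ptk2b (-1.20 and -1.86) and the exchange factor gene Mcf2 (-1.16 and -1.23) completed the class.

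**Figure D2:**
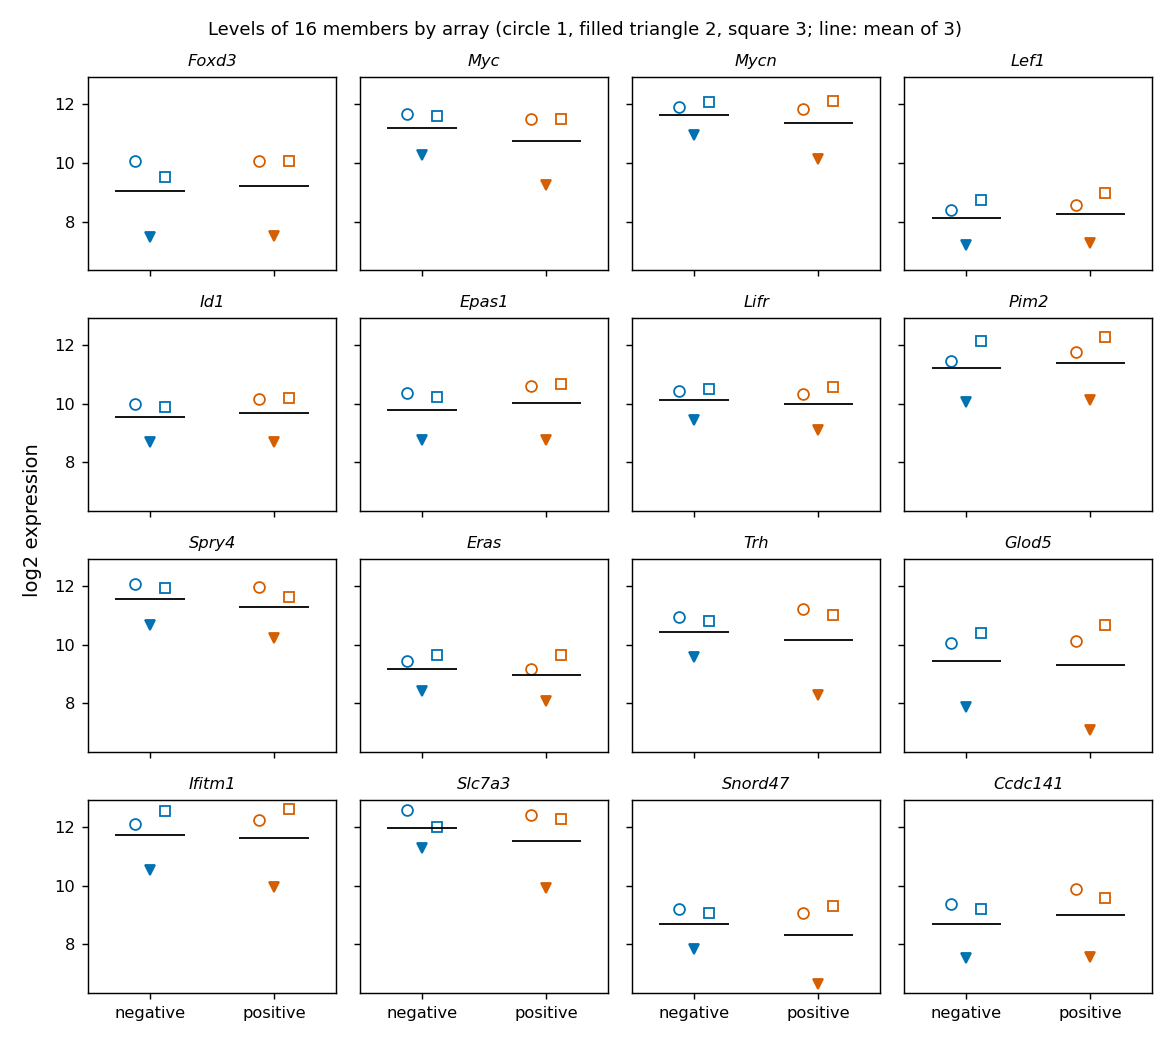
The vertical axis is log2 expression for 16 of the 95 genes, with circles for array 1, filled triangles for array 2, squares for array 3 and a line for the mean of the 3 arrays, in negative (blue) and positive (orange) cells. The triangle is the lowest point of its group in each panel, as for Foxd3 at 7.48 and 7.52, and positive replicate 2 sits well below negative replicate 2 for Trh (8.28 against 9.57) and Snord47 (6.64 against 7.84).

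The X chromosome held 21 of the 95 genes (22.1%), although 3.71% of all genes measured lie on it. Of its 739 measured genes 2.84% were low by the rule, against 0.387% of autosomal genes (74 of 19106) and 0.105% to 0.772% on single autosomes. The 199 genes higher in replicate 2 included 12 on the X (1.62% of its genes). Among genes with a mean level of at least 8, the median X-linked gene differed by -0.06 in negative and -0.18 in positive cells, and the autosomes had medians of 0.08 to 0.14 and -0.07 to 0.02. Y-linked genes were at the low end of the scale in all 6 arrays, with Eif2s3y at 3.64 to 3.72, Uty at 3.99 to 4.19 and Kdm5d at 4.61 to 4.97. Xist, the RNA that coats an inactive X, read 6.49, 6.22 and 5.83 in negative and 7.52, 7.80 and 6.996 in positive arrays, so replicate 2 was not its lowest array in either group. The share of X-linked genes stayed at 19.5% to 22.5% under the other settings of the rule, except at 14.3% where a difference of 1.2 log2 was required.

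Of those 21, 7 lay in 1 run of neighbouring genes: Wdr45, Pim2, Pqbp1, Eras, Glod5, Was and Tbc1d25. The run was delimited after the values were seen, from its first to its last such gene, and it holds 22 measured genes. All 22 were lower in replicate 2 of both groups. Glod5 (probeset 10603425), a glyoxalase-domain gene, read 10.06, 7.89 and 10.41 in negative and 10.14, 7.08 and 10.67 in positive arrays, which is 5.11-fold and 10.05-fold lower in replicate 2. Wdr45, an autophagy gene, read 11.69, 9.89 and 11.23 in negative and 12.02, 10.10 and 11.59 in positive arrays. Both stood apart from the other 4 arrays by more than 1 log2. Pqbp1, a splicing-related gene, read 11.62, 10.49 and 11.69 in negative and 11.51, 9.84 and 11.62 in positive arrays. Was, the Wiskott-Aldrich actin regulator of blood cells, differed by -1.34 and -1.27, and Tbc1d25, a gene with a Rab GTPase-activating domain, by -1.001 and -1.29. The 15 other genes of the run, which the rule did not take, had medians of -0.59 and -0.99, and 11 of them were at least 0.5 log2 lower in both groups. Among them were Tfe3, a factor of ES cell differentiation and lysosomes (-0.90 and -1.53), and the cold-shock gene Rbm3 (-0.70 and -0.92). In the 10 measured genes on each side of the run, 18 of 20 were lower in both groups, 3 by at least 0.5 log2, with medians of -0.26 and -0.30. The remaining 717 X-linked genes, which include these flanks, had medians of -0.09 and -0.06. No stretch of 22 measured genes on an autosome held more than 2 of the 95. Elsewhere on the X, Ribc1, Mageh1, Klf8 and Kctd12b also lay close together, with 9, 2 and 2 measured genes between successive ones.

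**Figure D3:**
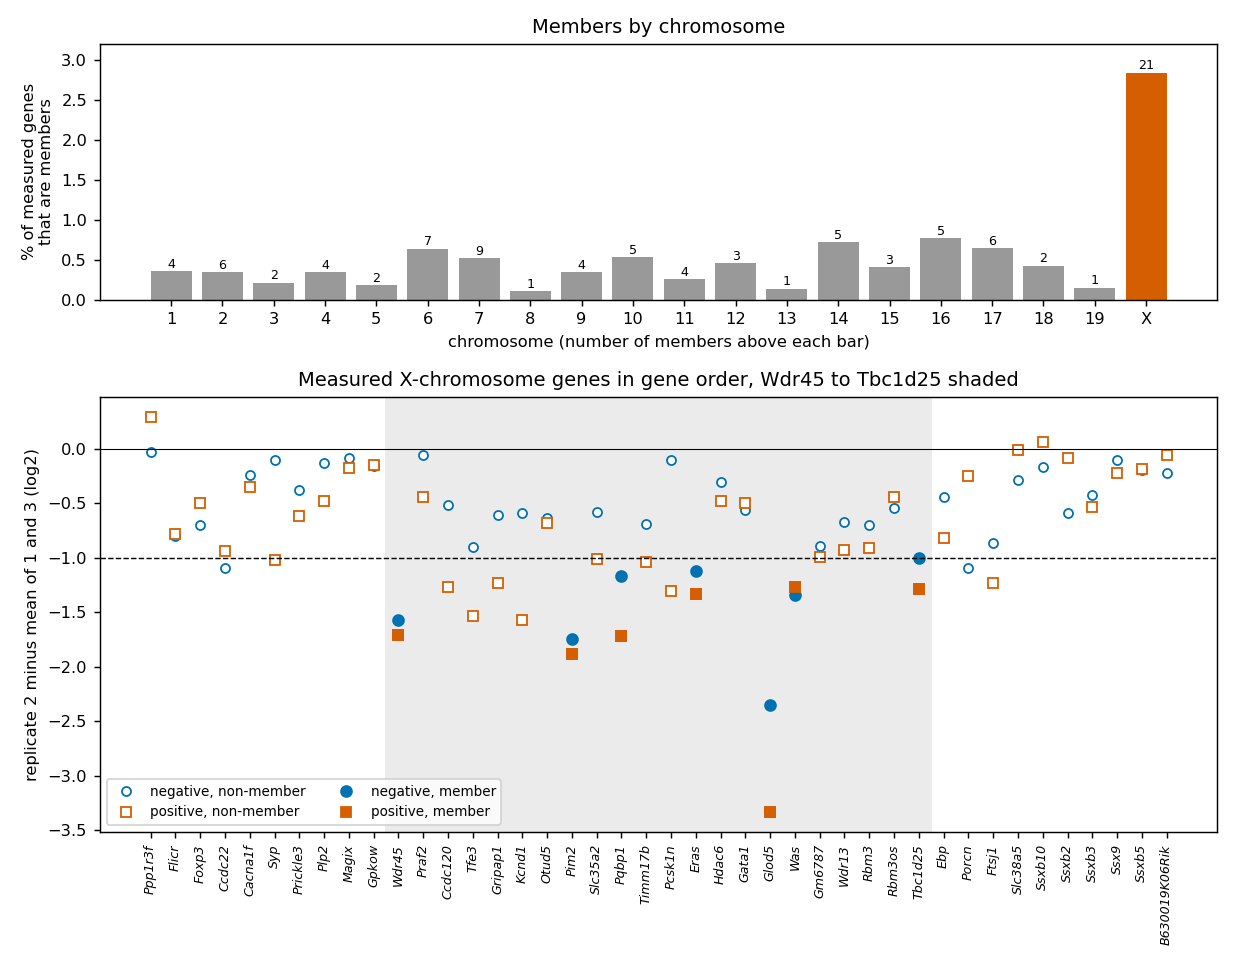
The upper bars give the percentage of measured genes on each chromosome that were low by the rule, with the number of such genes above each bar, and X stands at 2.84%. The lower panel plots replicate 2 minus the mean of replicates 1 and 3 (log2) for X-linked genes in gene order, with the run from Wdr45 to Tbc1d25 shaded and filled symbols for the 7 genes the rule took, and all 22 shaded genes lie below 0.

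The other 14 X-linked genes lay outside that run, with medians of -1.18 and -1.30. Slc7a3, an arginine transporter and a target of amino acid stress, read 12.58, 11.29 and 12.01 in negative and 12.42, 9.91 and 12.28 in positive arrays. Its positive replicate 2 array was lower than its negative one by more than 1 log2. Pcyt1b, an enzyme of phosphatidylcholine synthesis, differed by -1.44 and -2.14, and Pdzd4, a PDZ-domain gene, by -1.22 and -2.45. Tmsb4x, which encodes the actin-binding thymosin beta, read 11.82, 10.76 and 11.84 in negative and 11.83, 10.68 and 11.95 in positive arrays, with close agreement between the groups. The gene model 4930519F16Rik read 8.75, 7.14 and 8.63 in negative and 9.52, 7.84 and 9.62 in positive arrays, so it was higher in the positive array of each number. Txlng, Klf8, Mcf2, Ribc1, Rhox1, Kctd12b, Mageh1, Gm9 and 1810030O07Rik were the others. Rhox1 has close relatives in its cluster that may share probes.

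The 6 snoRNAs among the 95 were Snord47, Snord35a, Snord53, Snord118, Snora74a and DQ267102. They are 11.3% of the 53 snoRNA genes measured, against 0.476% of all genes. Snord47 (probeset 10351043), of the class that guides ribose methylation, read 9.19, 7.84 and 9.06 in negative and 9.06, 6.64 and 9.29 in positive arrays. Snord118, known as U8 and needed for ribosomal RNA cleavage, read 7.41, 5.60 and 7.37 in negative and 7.23, 6.23 and 7.89 in positive arrays. Snord47 was lower by more in positive cells, and Snord118 by more in negative cells (-1.80 against -1.33). Of all 53, 47 were lower in both groups, 19 by at least 0.5 log2 in both and 0 higher by that amount. Over all genes these shares were 40.9%, 2.49% and 5.15%. The shift was wider in positive cells, with medians over the 53 of -0.39 in negative and -1.27 in positive cells. Over all genes the medians were -0.05 and -0.04. At least 1 log2 lower were 36 in positive cells and 6 in negative cells, the latter being the 6 taken by the rule. The share of all genes at that difference in a single group was not counted. The 47 snoRNAs that the rule did not take had medians of -0.34 and -1.20. Host transcripts were measured for 2 of the 6, and neither host met the rule while both snoRNAs were taken by it, so the gap between them is partly set by the choice. Gas5, the host of Snord47, differed by -0.34 and -0.77 where Snord47 differed by -1.29 and -2.54. Wdr43, the host of Snord53, differed by -0.39 and -0.47 where Snord53 differed by -1.25 and -2.04. Short RNAs of related sequence can share probes, so single values are uncertain, and so is that of Rny3, a Y RNA that binds the Ro protein (-1.07 and -1.001).

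The surfactant protein genes Sftpa1, Sftpb and Sftpc and Lyz2 met the rule by another route: they were high in replicate 1 of both groups and low in replicates 2 and 3 alike. Sftpc (probeset 10421387), a hydrophobic protein of the film that lines lung alveoli, read 9.18, 5.52 and 5.82 in negative and 10.32, 5.59 and 5.63 in positive arrays. Sftpb, another protein of that film, read 8.85, 6.29 and 6.43 in negative and 9.60, 6.29 and 6.27 in positive arrays. Sftpa1, a collectin of the same fluid, read 8.85, 6.48 and 6.71 in negative and 9.20, 6.37 and 6.68 in positive arrays. Lyz2, the lysozyme of macrophages and alveolar cells, read 6.95, 4.70 and 5.06 in negative and 7.74, 4.89 and 4.85 in positive arrays. In all 4 the replicate 1 arrays stood alone, and replicates 2 and 3 lay within 0.5 log2 of each other in each group. Only 10 of 19938 genes had replicate 1 at least 1 log2 above both other arrays in both groups. They were these 4, the lung chemokine gene Cxcl15, the club cell secretoglobin gene Scgb1a1, Lcn2, Htr1b, Slc13a5 and Zc3h12a.

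Over 19 genes of lung secretory epithelium, a list drawn up after these values were seen, 16 had their highest level in replicate 1 of both groups, which held for 18.4% of all genes. Of the 19, 6 had it there by at least 1 log2. The exceptions to the first count were Abca3, Aqp5 and Scgb3a2. Abca3 was highest in replicate 2, at 8.45, 9.99 and 8.39 in negative and 8.51, 9.75 and 8.15 in positive arrays. Slc34a2 read 8.10, 5.44 and 6.10 in negative and 9.56, 9.25 and 5.68 in positive arrays, so its positive replicate 2 was high too. The mean of the list was 7.10, 5.98 and 6.17 in negative and 7.58, 6.08 and 5.97 in positive arrays, and its lowest gene was at 3.58, with no gene at 0 on this scale. Of the 5 macrophage markers, Lyz2 was the one with this pattern. Cd68 read 11.60, 11.54 and 11.51 in negative and 11.84, 11.47 and 11.85 in positive arrays, and Adgre1, Csf1r and Ptprc lay between 4.84 and 5.91 with replicate 1 within 0.3 log2 of the other arrays of its group. The part of lung cells in these readings was not tested. Scgb3a1, another secretoglobin, was on the lung list but low in replicate 2 alone, at 8.14, 6.21 and 7.58 in negative and 8.11, 6.20 and 7.41 in positive arrays.

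**Figure D4:**
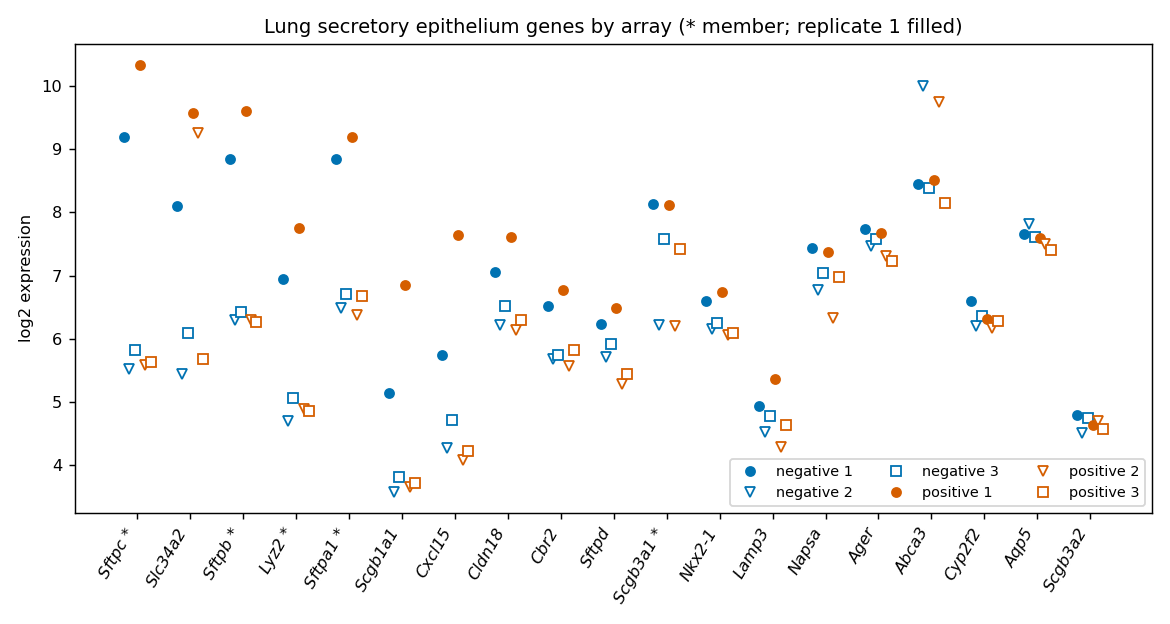
The vertical axis is log2 expression of 19 genes of lung secretory epithelium in each of the 6 arrays, with filled symbols for replicate 1, blue for negative and orange for positive cells, and an asterisk on the genes low in replicate 2 by the rule. Both replicate 1 symbols stand above the rest for Sftpc (9.18 and 10.32), Sftpb (8.85 and 9.60) and Sftpa1 (8.85 and 9.20).

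Further genes with immune roles were Ifitm1, Nlrc4, Fcgr2b, Aoah and Myo1g. Ifitm1, an interferon-induced membrane protein that is also made by primordial germ cells and responds to LIF, read 12.10, 10.54 and 12.55 in negative and 12.25, 9.96 and 12.63 in positive arrays. A further probeset of Ifitm1 behaved alike (-1.89 and -2.65), while close relatives of this gene may share its probes. Nlrc4, an inflammasome sensor, read 7.76, 5.99 and 7.53 in negative and 8.06, 5.91 and 7.98 in positive arrays. Fcgr2b, the inhibitory IgG receptor, was lower by more in negative cells (-1.55 and -1.19), and Aoah, which inactivates endotoxin, by more in positive cells (-1.14 and -1.48). Genes of the germ line were Morc1, needed to silence transposons in male germ cells (-1.72 and -1.77), Tdrd12, a partner in piRNA production (-1.09 and -1.76), and Zp3, a protein of the egg coat (-1.37 and -1.74). Of these, Morc1 differed by nearly the same amount in both groups, and the others by more in positive cells. A list of other germline and meiosis genes went the other way. Of its 28 measured genes 0 met the rule, 1 was at least 0.5 log2 lower in both groups and 6 were higher by that amount. Its medians were 0.15 in negative and 0.59 in positive cells. Proteins of epithelia included the kallikrein Klk10 (-1.22 and -1.25), the bladder plaque protein Upk1a (-1.28 and -1.68), the transglutaminase Tgm3 (-1.54 and -1.29), Vsig2 and Fetub.

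Enzymes, transporters and structural genes gave the remaining named classes. Gpx2, a glutathione peroxidase and target of the oxidative stress factor NRF2, read 11.23, 9.69 and 11.25 in negative and 11.43, 9.68 and 11.42 in positive arrays, with the groups almost superimposed. Hmces, a sensor of abasic sites in DNA, read 12.60, 11.40 and 12.41 in negative and 12.31, 10.23 and 12.41 in positive arrays. Its replicate 2 arrays differed from each other by more than 1 log2. The metal transporter genes Slc39a14 (-1.24 and -2.16) and Slc30a2 (-1.01 and -1.17) and the nucleobase transporter gene Slc23a4 (-1.04 and -1.53) joined Slc7a3 among the solute carriers. Lama1, a laminin chain of early basement membranes, read 9.76, 8.37 and 9.28 in negative and 9.21, 7.87 and 8.98 in positive arrays. Septin1, a cytoskeletal GTPase, read 11.85, 9.98 and 11.38 in negative and 11.77, 9.498 and 11.60 in positive arrays. In both genes replicate 2 was the lowest array of its group by at least 0.9 log2. The olfactory receptor gene Olfr985 differed by -1.08 and -1.45, and its large family may share probes.

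Several genes with wide differences have no well-known role in ES cells. Platr8, a long noncoding RNA named for its link to pluripotency, read 8.33, 6.86 and 8.17 in negative and 8.53, 4.95 and 8.26 in positive arrays, the widest gap of all in positive cells. The gene model 4930591A17Rik read 8.46, 5.82 and 7.64 in negative and 9.11, 6.65 and 8.70 in positive arrays. Ccdc141, a coiled-coil gene, read 9.38, 7.52 and 9.21 in negative and 9.89, 7.58 and 9.57 in positive arrays. Its 4 other probesets were lower in replicate 2 of both groups too, and 3 of them met the rule. Ildr1 (-1.69 and -1.96), an immunoglobulin-domain receptor, and the gene model 9330159F19Rik (-1.63 and -1.57) were among the rest. Over the 5 genes with further single-symbol probesets, all 8 such probesets were lower in both groups and 7 met the rule, although that of Snord118 holds the same values as the probeset used. The 29 genes assigned to no class of function had medians of -1.22 and -1.73.

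**Figure D5:**
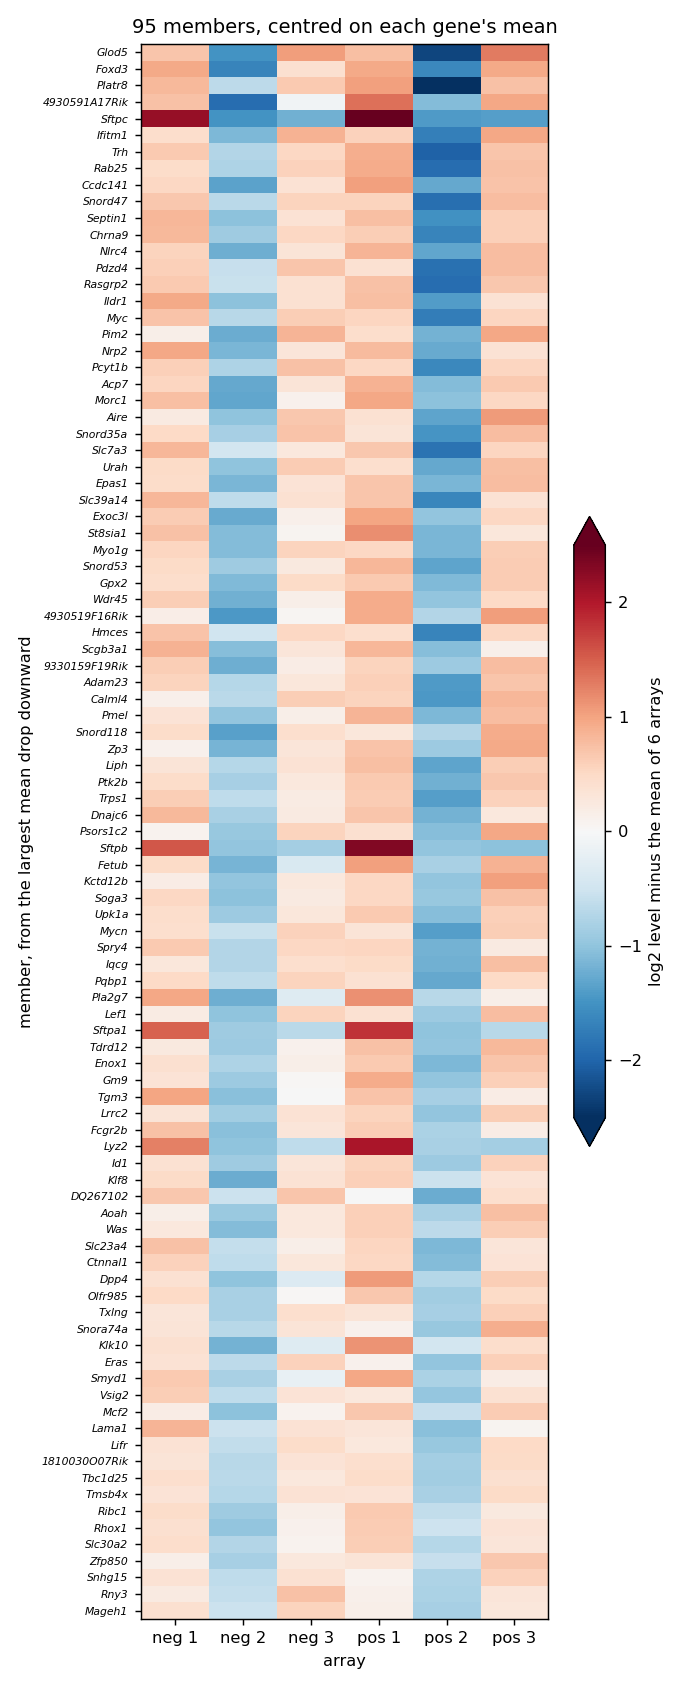
Each row is 1 of the 95 genes, ordered from the largest mean difference downward, each column is an array, and colour gives the log2 level minus the gene's mean over 6 arrays. The replicate 2 columns are blue throughout, deepest in positive cells for Platr8, while the rows of Sftpc, Sftpb, Sftpa1 and Lyz2 are red in replicate 1 alone.

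Gene lists put these genes beside others of their pathways. The lists share genes, so their counts are not independent. Myc is on the lists for primed epiblast, LIF and STAT3, FGF and ERK, WNT and the Myc family. Lef1 is on those for primed epiblast and WNT, and Pim2 on those for primed epiblast and LIF and STAT3. The counts at 0.5 log2 stand against 2.49% of all genes lower and 5.15% higher in both groups. On the list of primed epiblast genes, 4 of 27 measured were low by the rule (Foxd3, Lef1, Myc and Pim2), 7 were at least 0.5 log2 lower in both groups and 1 was higher by that amount. Dnmt3b, a DNA methyltransferase on this list, differed by -0.59 and -0.84. Among 18 genes of LIF and STAT3 signalling, a list drawn up after the values were seen, 4 were low by the rule (Lifr, Pim2, Myc and Ifitm1), 5 were at least 0.5 log2 lower in both groups and 1 was higher by that amount. The higher one was Pim1, a STAT3 target and relative of Pim2 (0.92 and 1.64). Lower by any amount in both groups were 14 of the 18, against 40.9% of all genes. That count includes the 4 genes taken by the rule and rests on a list made with the values known. It is therefore a description and not a sign of enrichment. Of 23 naive pluripotency genes 0 met the rule and 16 were lower in both groups, with medians of -0.27 and -0.50. Those at least 0.5 log2 lower were Nr0b1, Nr5a2, Tet2 and Zfp42. Among 20 genes of FGF and ERK feedback, 5 were at least 0.5 log2 lower (Myc, Spry4, Etv4, Etv5 and Fosl1) and 1 higher. Among 22 WNT targets and regulators, 5 were lower by that amount and 1 higher. The medians of this list were 0.13 in negative and 0.13 in positive cells, however. Only 6 of the 22 were lower by any amount in both groups, against 40.9% of all genes, so the WNT list as a whole was not lower. Among 16 BMP and Id genes 1 was at least 0.5 log2 lower and 2 were higher, counts that in so short a list are not read as a shift. Of 10 Myc family genes and partners, also listed after the values were seen, Myc and Mycn were lower by that amount and 0 were higher. On other lists the shift ran the other way: 13 of 23 targets of SRF and YAP and 8 of 23 sterol synthesis genes were at least 0.5 log2 higher in replicate 2 of both groups, and 0 of either were lower. Of 21 immediate-early genes 6 were higher and 1 lower, of 20 trophectoderm genes 6 and 1, and of 15 retinoic acid targets 5 and 0. Of 32 collagen and matrix genes, Lama1 included, 5 were higher and 1 lower. Hypoxia targets had 4 of 30 higher and 2 lower, with medians of -0.01 in negative and -0.05 in positive cells, which is not read as a shift. Nodal signalling genes had 0 of 25 lower and 2 higher, which is not read as a shift either. On every list, 0 genes passed the limma test of positive against negative cells and 0 passed that of replicate 3 against replicate 1. Over all genes 0% passed either test, so these counts do not set any list apart.

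The study compares positive with negative cells, and the rule does not use that contrast. None of the 95 genes passed it (limma, adjusted p under 0.05 over 19938 genes, 0% of all genes called), and the smallest adjusted p among them was 0.910. At an unadjusted p under 0.05 there were 0 of the 95, against 4.4% of all genes. The rule itself sets this outcome in part, since a gene with 1 low array in each group has a wide spread within groups. With the replicate number as a block, which removes that spread, 0 passed as well (smallest adjusted p 0.374 among the 95), and 21 had an unadjusted p under 0.05, 17 higher and 4 lower in positive cells. Over all genes the block gave 12% at that level, 5.4% higher and 6.61% lower. The median difference over the 95 was 0.07, with 55 higher and 40 lower in positive cells, and -0.04 over all genes. Positive minus negative arrays of number 1 had a median of 0.16, those of number 2 one of -0.12 and those of number 3 one of 0.22. Leaving out single arrays moved the median from -0.34, without negative replicate 2, to 0.65, without positive replicate 2, and it was 0.20 without both.

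The widest differences between the groups were those of gene models and of Klk10. For 4930591A17Rik the positive arrays were higher by 0.84 (SE 0.83, limma adjusted p = 0.918), and with the replicate block the SE was 0.11 and the adjusted p was 0.379. For 4930519F16Rik the difference was 0.82 (SE 0.59, limma adjusted p = 0.910), and with the block the SE was 0.10 and the adjusted p 0.374. Klk10 read 9.61, 8.03 and 8.88 in negative and 10.32, 8.74 and 9.65 in positive arrays, a difference of 0.73 (SE 0.50, with the block 0.09). In each of these 3 genes the positive array was above the negative array of its own number, but the groups overlapped. On the other side, the snoRNA DQ267102 read 11.02, 9.82 and 11.06 in negative and 10.34, 9.11 and 10.78 in positive arrays, a difference of -0.55 (SE 0.50, limma adjusted p = 0.917). Platr8 differed by -0.54 (SE 0.94) and Hmces by -0.49 (SE 0.61). The sign of Platr8 rested on replicate 2, since the difference was 0.15 without both replicate 2 arrays. Without positive replicate 2 alone it was 0.61, and that of Hmces was 0.22.

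Replicates 1 and 3 were also compared with each other. The rule uses their mean, not their difference, but a gene that is high in replicate 1 alone can meet it through that mean, as the surfactant genes and Lyz2 did. The counts of genes lower in replicate 3 are therefore partly set by the choice of genes and are given as a description. Of the 95, 76 differed by less than 0.5 log2 (80.0%, against 98.2% of all genes), and the median was -0.10, against -0.02 over all genes. None passed the limma test with group as a covariate (0% of all genes called), with a smallest adjusted p of 0.122, for Sftpa1. At an unadjusted p under 0.05 there were 28 of the 95, against 5.98% of all genes. Replicate 3 was at least 1 log2 below replicate 1 for 5 of the 95, against 0.0802% of all genes, and at least 1 log2 above it for 0 (0.0201% of all genes). The 5 were Sftpc (-4.03, SE 0.31), Sftpb (-2.87, SE 0.23), Lyz2 (-2.39, SE 0.24), Sftpa1 (-2.33, SE 0.15) and Pla2g7 (-1.15, SE 0.13), and the first 4 of them met the rule through a high replicate 1. Pla2g7, a phospholipase of platelet-activating factor, read 9.08, 6.88 and 7.78 in negative and 9.25, 7.42 and 8.25 in positive arrays, so replicate 3 lay between the others. The largest excesses of replicate 3 were those of Pim2 (0.61), Aire (0.56) and Psors1c2 (0.52). These fits estimate the spread partly from the replicate 2 arrays. Without them, 8 of the 95 passed the same test, of 0.391% of all genes called, and all 8 were lower in replicate 3 (0.221% of all genes, with 0.171% higher): Sftpc, Sftpb, Lyz2, Sftpa1, Pla2g7, Smyd1, St8sia1 and Klk10. Neither this number nor its direction is independent of the rule, since a high replicate 1 favours being taken by it.

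The threshold divides genes that read much alike. Just inside it were Snhg15, a snoRNA host gene (-1.001 and -1.11), Rny3 (-1.07 and -1.001) and Tbc1d25 (-1.001 and -1.29). Just outside were Slc17a9, a vesicular nucleotide transporter gene (-0.998 and -2.01), Saa3, an acute-phase gene (-0.995 and -1.497), and Itgb7, an integrin subunit gene (-0.992 and -1.56).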

How the data were processed

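Log2 expression of 6 ES cell samples was measured on 1 array each. The values are log2 expression as deposited by the authors, made with RMA in Affymetrix Expression Console per the submitters' processing notes. RMA equalises quantiles between arrays, so a shift in total RNA cannot be seen, and it compresses dim probesets. Software versions and the genome build were not given in the sources used here. Of 35556 probesets, 21789 carry 1 symbol, 1621 several and 12146 are not listed in the platform annotation. The probeset with the highest mean over 6 arrays stands for each of 19938 genes, 19856 of which matched RefSeq (GRCm38.p6) by identifier, with all 95 among them. Symbols were read from the platform annotation, and RefSeq gave chromosomes, gene order and promoters. A further gene that meets the rule is not reported here.

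limma 3.58.1 in R 4.3.3 (lmFit, eBayes, two-sided, Benjamini-Hochberg over all genes, threshold 0.05) compared positive with negative arrays, and replicate 3 with replicate 1 with group as a covariate. The fit of positive against negative with the replicate block and that of replicate 3 against replicate 1 were run on simulated data. The fit of positive against negative without the block was not. The number of arrays limits the precision. Same-numbered arrays deviated together from their group means (r = 0.55, 0.55 and 0.46). Deviations within a group offset each other, so a replicate 2 shift shared by both groups can by itself raise r for numbers 1 and 3. Arrays of unlike number were not compared, so these values do not decide whether the numbers of the titles pair the samples. What the numbers mark is not stated.

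The 95 genes and the gene lists were chosen with earlier results of these data known. Genes were named by rule: the 20 with the largest mean difference, the 3 widest each way between groups and between replicates 1 and 3, those on a list, and the 3 nearest the threshold on each side. Other named genes, the lists for lung secretory epithelium, LIF and STAT3, and the Myc family, the role classes and the counts by chromosome were chosen after values were seen. Alternatives were median centring, a further quantile normalization, omission of the dimmest 30% of genes, array weights, other thresholds, other probeset choices, the replicate block and omission of arrays.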

Additional observations from a re-analysis of the deposited data

How the results depend on the processing

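The number of genes that meet the rule was 173 at a difference of 0.8 log2 and 56 at 1.2 log2, against 95 at 1 log2. It ranged from 84 without replicate 1 to 128 without replicate 3, of which 69 and 88 were among the 95, and from 76 with median centring to 108 with a further quantile normalization. With median centring 15 of the genes were X-linked and 5 were snoRNAs.

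With the replicate block, 0 genes passed positive against negative, as in the other settings tried. The median positive minus negative difference of the 95 ranged over arrays left out from -0.338 (without negative replicate 2) to 0.649 (without positive replicate 2), was below 0 without positive replicate 1 or 3 too, and was 0.315 without negative replicate 1. Platr8 ranged from -1.19 (without positive replicate 1) to 0.607 (without positive replicate 2), with 0.146 without replicate 2, and Hmces from -0.868 (without positive replicate 3) to 0.219 (without positive replicate 2). The cause was not tested.

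For replicate 3 against replicate 1, 1 gene, among the 95, passed with no group term. Over arrays left out the count was 0 to 8 among the 95 and 0 to 78 over all genes, with the highest counts without either or both replicate 2 arrays, which leave the same 4 arrays to estimate the contrast, and 1 without negative replicate 1. The median difference ranged from -0.279 (without positive replicate 3) to 0.127 (without negative replicate 3). With 3 arrays per group and signal compressed at the dim end, small differences of dim genes are the least certain.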

Other observations

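Probesets that entered no comparison between named genes also met the rule. Among those with several symbols there were 8. A pair assigned to Sms, the spermine synthase gene on the X chromosome, and the gene model Gm8234 differed by -1.40 and -2.12 and by -1.33 and -2.15 in negative and positive cells. The first of them (probeset 10604844) read 12.18, 10.79 and 12.20 in negative and 12.14, 10.10 and 12.30 in positive arrays. Another 4 carried the imprinted snoRNA symbols Snord116l1 and Snord116l2, with differences of -1.24 to -1.28 in negative and -1.001 to -1.03 in positive cells. The remaining ones carried Oas1a with Oas1g, antiviral synthetases (-1.15 and -1.38), and Apoc2, an apolipoprotein, with Gm44805 (-1.02 and -1.39). Of the 12146 probesets not listed in the annotation, 154 met the rule, and they stay unnamed here.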
